A study of Mus musculus with 6 samples.

Results

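The cytochrome P450 genes were followed on 6 Affymetrix mouse arrays, 3 titled PBS (here control) and 3 labelled MBELN, an exosome-like nanoparticle preparation from mulberry bark. Members were all rows of the deposited table whose platform symbol has the form of Cyp, a family number, a subfamily letter and a gene number, together with Cyp51, and pseudogenes were left out. This gave 90 genes of the 19505 named on the array, each with 1 probe set. Another 6 P450 symbols ending in a further letter or with a longer subfamily name fall outside that form. Per the labels, treated C57BL/6J mice were dosed by mouth with particles in 100 µl on each of 7 days before colon was taken, and control mice were labelled as such with no agent beyond the title's PBS. Mice of both groups are of that 1 strain, the labels give neither age nor sex, and nothing in them ties an array to a separate animal. A p-value here thus covers the spread between these arrays alone. The arrays are few, which limits the precision of every comparison between the groups. The labels state no aim beyond finding genes that differ after treatment.

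P450 enzymes are haem proteins that insert oxygen into their substrates with electrons passed on by a reductase. Families 1 to 3 are best known for oxidising drugs, dietary chemicals and other foreign compounds, family 4 for oxidising fatty acids and eicosanoids, and the remaining families for single steps in making or removing cholesterol, bile acids, steroid hormones, vitamin D and retinoic acid. The liver is the main site of most of them. The gut epithelium carries a set of its own, which meets food chemicals first, and brain and skin carry a few specialised members.

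Values are log2 expression as deposited. Background was set per array at the 95th percentile of its 5222 rows for negative controls, and a gene is called above background where its value is higher. The threshold lay between 7.93 (MBELN 1) and 10.11 (control 2). Several arrays did not carry the genes of the labelled tissue. Of 8 colonocyte markers, 7 were above background on control 1 and at most 1 on any other array. All 10 hepatocyte markers were above background on MBELN 3, with values of 18.92 to 19.93 there, and at most 3 on another array. Cardiac muscle markers were above background on MBELN 1 (6 of 6), squamous epithelium markers on MBELN 2 (6 of 6) and neuron and glia markers on control 3 (7 of 7 measured). Smooth muscle markers were above background on both control 1 (6 of 6) and MBELN 1 (5 of 6). Control 2 was flat, with 0 of 8 housekeeping genes above background, against 8 of 8 on each other array. Each array is therefore called by its label, and a P450 level on it describes that array. The spread within each group includes these differences in tissue genes, which treatment cannot be told apart from. Whether every column holds a colon array was not tested, so a difference or fold bound between MBELN and control below compares the labelled columns and is no measured response of colon. In such tissue samples fewer cells of a type and less RNA per cell cannot be told apart.

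Most P450 genes that were measured above background were measured on MBELN 3. There 44 of 90 (48.9%) were above background, against 23.1% of all 22206 probe sets. On control 1, the array with colon genes, 19 were (21.1%, against 26.0% of all probe sets). The other arrays had fewer than their background share. MBELN 1 had 8 (8.89%, against 27.7%), MBELN 2 had 6 (6.67%, against 14.3%), control 3 had 3 (3.33%, against 20.7%) and control 2 had 0 (against 0.311%). Of the 90 genes, 35 were above background on no array, 37 on exactly 1 array, 13 on 2, 3 on 3 and 2 on 4. All probe sets lay above background on no array in 57.2% of cases, against 38.9% of the P450 genes.

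**Figure D1:**
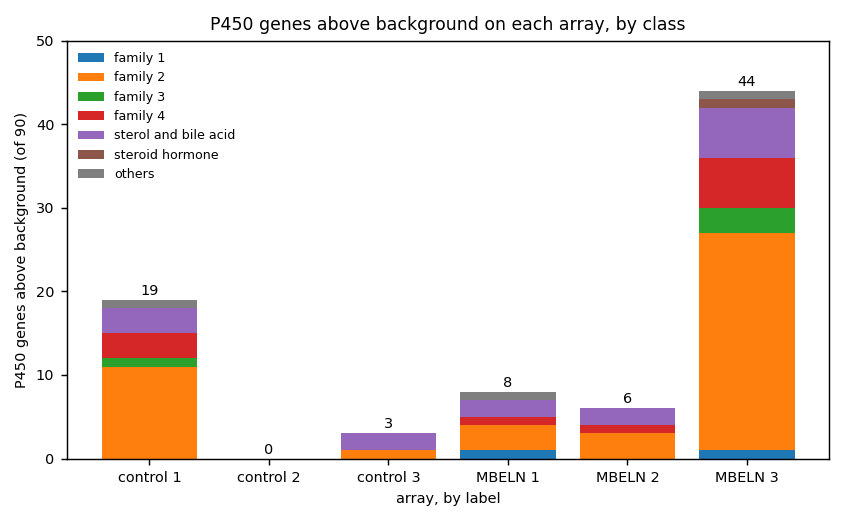
Number of the 90 P450 genes above background (vertical axis) on each array (horizontal axis), with colours for the gene classes and the total above each bar. MBELN 3 carries 44, of which 26 belong to family 2, control 1 carries 19, and control 2 carries 0.

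A stricter description took a gene as leading on an array when it was above background there and at least 2 log2 units above every other array. By that rule 45 P450 genes led on an array: 35 on MBELN 3 (38.9%, against 3.59% of all probe sets) and 6 on control 1 (6.67%, against 2.63%). MBELN 2 had 2 leading genes (2.22%, against 1.89%), control 3 had 1 (1.11%, against 5.16%), MBELN 1 also had 1 (1.11%, against 2.52%) and control 2 had 0 (against 0.0811%). The colonocyte, hepatocyte, cardiac, squamous and neuron markers each stood out on 1 array, so these counts have no replicate and no test. The genes nearest the threshold show how fine the line is. On control 1 Cyp20a1 (8.18) was just inside and Cyp2f2 (8.13) just outside, and on MBELN 3 Cyp20a1 (8.58) was just inside and Cyp2u1 (8.39) just outside.

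**Figure D2:**
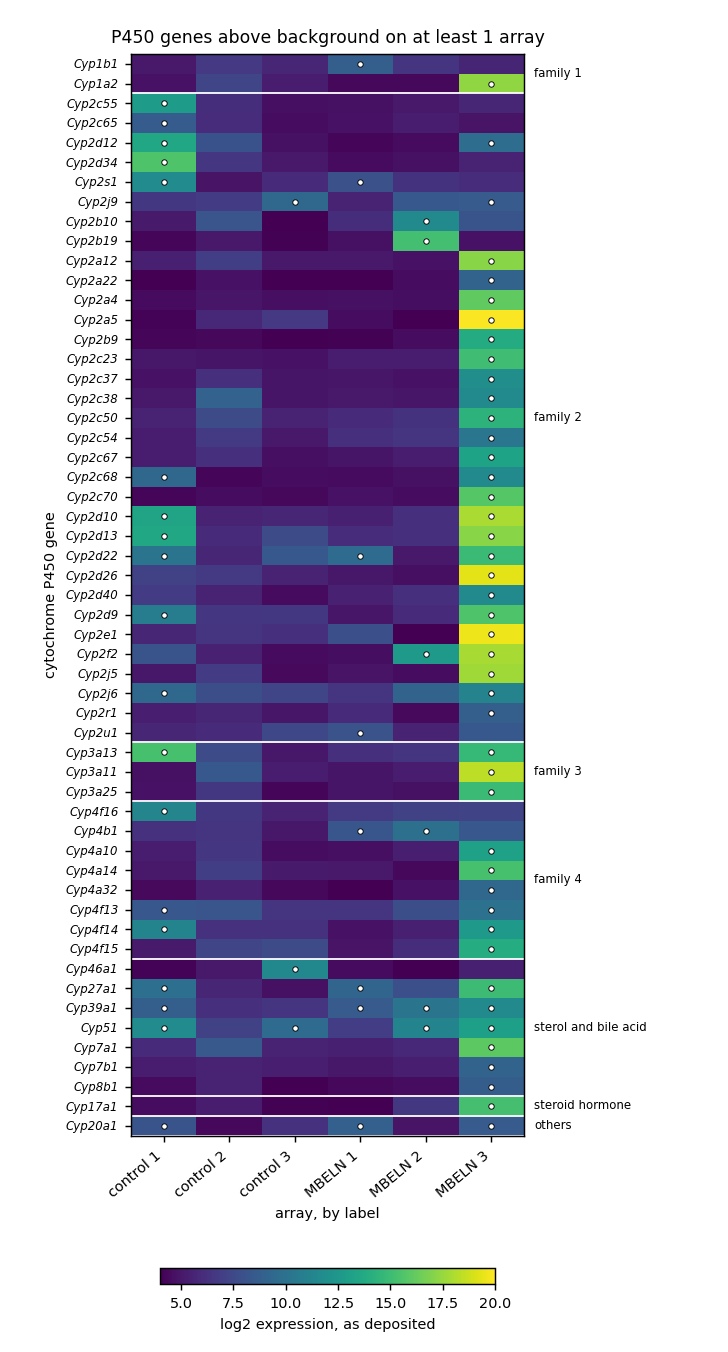
Log2 expression (colour) of the 55 P450 genes above background on at least 1 array (rows, grouped by class) on each of the 6 arrays (columns), where a white dot marks a value above that array's background. The dots fill the MBELN 3 column and part of the control 1 column, and the control 2 column has none.

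Between the groups, 0 of the 90 P450 genes differed by limma's test, as did 0 of 22206 probe sets (0% called), and the smallest adjusted p was 0.936 for both. At an unadjusted p under 0.05 there were 2 P450 genes (2.22%, against 1.90% of all probe sets), Cyp4b1 and Cyp39a1. The groups did not overlap for 4 P450 genes (4.44%, against 6.83%), namely Cyp2c23 and Cyp4b1, higher on MBELN arrays, and Cyp27b1 and Cyp4f18, lower. Cyp27b1 and Cyp4f18 were above background on no array, and Cyp2c23 only on MBELN 3. Without the flat control 2 the non-overlapping genes numbered 15 (16.7%, against 18.3%).

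The direction of the P450 genes as a list turned with 1 array. The fitted difference was above 0 for 60 of 90 (66.7%, against 49.6% of all probe sets), with a median of 0.87 over the members and -0.01 over all probe sets. Without control 2 it was above 0 for 70 (77.8%, against 55.5%), with a median of 0.77. Without MBELN 3, the array with liver genes, it was above 0 for 25 (27.8%, against 48.6%), with a median of -0.38. Family 2 went from 33 of 46 to 15 of 46 and family 3 from 5 of 7 to 0 of 7. The sterol and bile acid class went from 6 of 7 to 2 of 7. Above background on no array were 35 members, and 28 on MBELN 3 alone, so without it these compare values at background. The median value of all members was 6.14 on the flat control 2, and 4.80 to 5.10 on control 1, control 3, MBELN 1 and MBELN 2. In family 3 it was 6.87 on control 2 and 4.72 to 4.89 on those arrays. Leaving out MBELN 3 and control 2 together was not tried. Without control 1, the array with colon genes, the median was 1.05. The members were chosen as a gene family, with earlier results of these data known, and no test of the list was made.

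**Figure D3:**
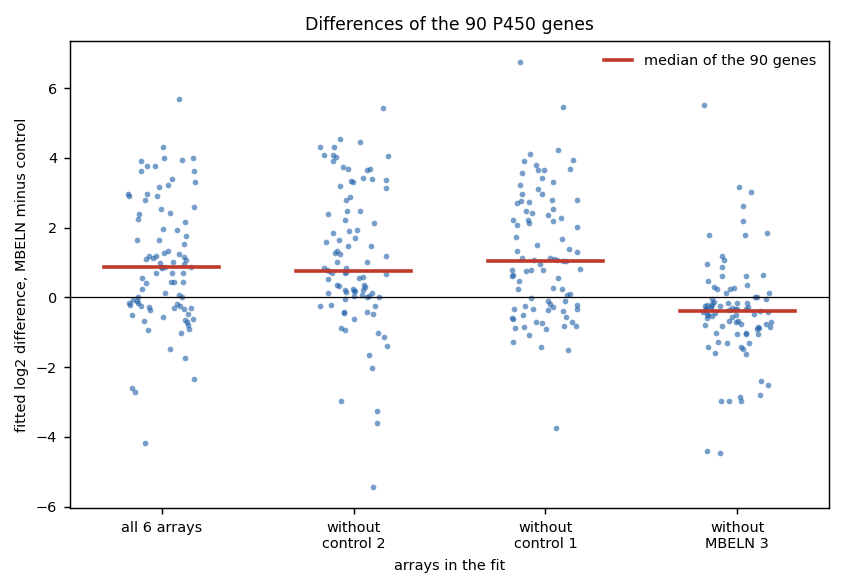
Fitted log2 difference, MBELN minus control (vertical axis), of each of the 90 P450 genes (points, spread sideways for legibility) with all 6 arrays and with control 2, control 1 or MBELN 3 left out (horizontal axis), with the median as a red bar. The median is 0.87 with all arrays and -0.38 without MBELN 3.

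Cyp4b1, a family 4 enzyme that also activates some foreign compounds, had the smallest unadjusted p of the 90. It stood at 6.28, 6.46 and 5.03 on control 1 to 3 and at 8.28, 9.89 and 8.37 on MBELN 1 to 3. Every MBELN array lay above every control array, and only MBELN 1 and MBELN 2 exceeded their background. The means were 5.92 ± 0.78 (SD, n = 3) and 8.85 ± 0.90 (n = 3), a fitted log2 difference of 2.92 (SE 0.70, limma adjusted p = 0.936). The bound on its fold was under 1, so none is given. The difference was 3.16 without MBELN 3 and 3.19 without control 2.

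Cyp39a1, an oxysterol hydroxylase of bile acid synthesis, stood at 8.85, 6.24 and 6.44 on control 1 to 3 and at 8.60, 10.15 and 11.64 on MBELN 1 to 3. The groups overlapped, since control 1 exceeded MBELN 1. The fitted log2 difference was 2.96 (SE 1.08, limma adjusted p = 0.936), and it was 1.28 without both control 2 and control 3. It was above background on all 3 MBELN arrays and on control 1.

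Family 1 enzymes oxidise planar aromatic compounds, and their genes are the textbook targets of the aryl hydrocarbon receptor (AhR), which plant compounds can activate. Cyp1a1, the most inducible of them in gut, was above background on no array, at 4.27, 6.20 and 4.21 on control 1 to 3 and 4.09, 4.54 and 5.18 on MBELN 1 to 3. The groups overlapped, and these values do not show whether it responded. Its fitted log2 difference was -0.29 (SE 0.72, limma adjusted p = 0.951) with all arrays and 0.36 without control 2.

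Cyp1a2, the constitutive liver member, was at 17.36 on MBELN 3 and between 4.34 (MBELN 2) and 7.33 (control 2) on the other 5 arrays, none above background. Cyp1b1, which acts on steroids and aromatic compounds outside the liver, led on MBELN 1, at 8.87. It was at 5.10, 6.66 and 5.69 on control 1 to 3, at 6.44 on MBELN 2 and at 5.63 on MBELN 3. The fitted log2 difference of Cyp1b1 was 1.16 (SE 0.97, limma adjusted p = 0.936), and 0.22 without MBELN 1 or 1.84 without MBELN 3. All 3 family 1 genes were thus at background on control 1, the array with colon genes.

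Family 2 is the largest, with 46 members here, and 26 of them were above background on MBELN 3, 11 on control 1, with 3 or fewer on each other array. Its median was 9.43 on MBELN 3 and lay between 4.75 (control 3) and 5.94 (control 2) on the others. Its members split by array within single subfamilies.

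Control 1 carried 5 P450 genes that were not above background on MBELN 3. Cyp2c55, an enzyme known for oxidising arachidonic and linoleic acid in colon, was at 12.85 on control 1 and at 4.66 to 6.12 on the other arrays. Cyp2c65, its neighbour and close relative in the gut, was at 8.65 against 4.52 to 6.04. Cyp2d34 showed the widest gap on this array, at 15.61 against 4.45 to 6.51. Cyp2s1, an epithelial P450 with eicosanoid substrates, was at 11.71 there, at 7.98 on MBELN 1, just above that array's threshold, and at 4.86 to 6.36 on the other 4. Cyp4f16, of the eicosanoid-oxidising 4f subfamily, was at 11.29 against 5.55 to 7.28.

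Of these, Cyp2d34 had a fitted log2 difference of -4.17 (SE 2.76, limma adjusted p = 0.936) between the groups, which was -0.90 without control 1. With the control values taken as measured (control 2 and control 3 under background), its mean was at least 1.40-fold lower on MBELN arrays. That bound is set against the thresholds of the MBELN arrays, where it was not above background. Cyp2c55 had a fitted difference of -2.71 (SE 2.13, limma adjusted p = 0.936), and -0.23 without control 1. Its fold bound was under 1. Both differences rest on control 1 against 5 arrays below background.

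The other 14 genes above background on control 1 were above background on MBELN 3 as well. Among them was Cyp2d12, which led on control 1, at 13.54, with 9.75 on MBELN 3 and 4.23 to 8.01 elsewhere. Cyp2d10 and Cyp2d13, of the same gene cluster, were at 13.35 and 13.58 on control 1, and at 17.98 and 17.14 on MBELN 3. Cyp2d9 was at 10.81 and 15.56, and Cyp2c68 at 9.37 and 11.56, on the same arrays. Cyp2d22 was above background on control 1 (10.18), MBELN 1 (9.60) and MBELN 3 (14.93), and stood at 8.43 on control 3, 5.73 on control 2 and 5.08 on MBELN 2. Cyp2j6, an arachidonic acid epoxygenase with wide expression, was at 9.42 on control 1 and 11.17 on MBELN 3, and at 9.09 on MBELN 2, just under that array's threshold of 9.34. Genes of the 2c and 2d subfamilies are close in sequence, and whether their probe sets cross-hybridise was not tested.

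**Figure D4:**
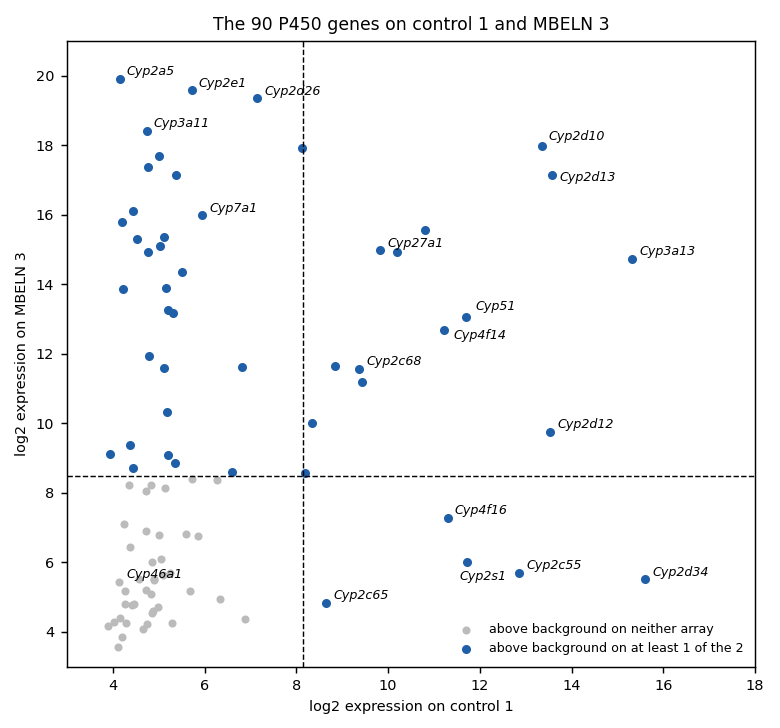
Log2 expression of the 90 P450 genes on control 1 (horizontal axis), the array with colon genes, and on MBELN 3 (vertical axis), the array with liver genes, with each array's background as a dashed line. Cyp2d34, Cyp2c55, Cyp2s1, Cyp4f16 and Cyp2c65 lie at the lower right, 14 genes lie above both lines, and 30 lie above the MBELN 3 line only.

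Family 2 genes known from liver stood high on MBELN 3. Cyp2e1, the ethanol-oxidising enzyme of central liver lobules, was at 19.57 there, at 5.72, 6.40 and 6.17 on control 1 to 3, at 7.89 on MBELN 1 and at 3.74 on MBELN 2. No array but MBELN 3 was above background. Its fitted log2 difference was 4.30 (SE 3.93, limma adjusted p = 0.936), and -0.28 without MBELN 3. With MBELN values taken as measured (MBELN 1 and MBELN 2 under background), its mean there was higher by at least 2.56-fold. This bound rests on MBELN 3 as the only value above background.

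All 4 members of subfamily 2a led on MBELN 3. Cyp2a5, the coumarin hydroxylase, was at 19.91 there and at 3.93 to 6.65 elsewhere, and Cyp2a4, a steroid hydroxylase nearly identical to it, at 16.11 against 4.44 to 4.96. Whether each of these 2 probe sets also reads the other gene was not tested. Cyp2d26 was at 19.35 against 4.68 to 7.14. Cyp2r1, the vitamin D 25-hydroxylase, was above background on MBELN 3 alone, at 8.85 against 4.43 to 5.89.

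Some family 2 genes were above background on MBELN 2, the array with squamous epithelium and skeletal muscle genes. Cyp2b19, a keratinocyte epoxygenase of skin, was at 15.25 on MBELN 2 and at 4.08 to 5.11 on every other array. The rule for naming genes picks neither it nor Cyp2b10, and both are given here because of their values. Cyp2b10, the usual target of the receptor CAR in liver, was at 11.58 on MBELN 2, at 8.14 on MBELN 3, just under that array's threshold, and at 4.02 to 8.24 on the others. Cyp2f2, an enzyme of airway club cells and outer liver lobules, was at 12.68 on MBELN 2 and at 17.91 on MBELN 3, with 8.13 on control 1 and 4.45 to 5.48 elsewhere. Of the 5 members of subfamily 2b, all were higher on MBELN arrays by mean, and the median difference was 2.80, or 0.95 without MBELN 3. None of the 5 passed the adjusted test.

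The Cyp2d genes and most Cyp2c genes lie in clusters of neighbouring copies. In RefSeq's chromosome order Cyp2c55 and Cyp2c65 come first of the 14 measured 2c genes. Both led on control 1, and neither was above background on MBELN 3. Of the 12 that follow, 8 led on MBELN 3, and Cyp2c66, Cyp2c39, Cyp2c40 and Cyp2c69 were above background on no array. Cyp2c23, the last in order, is among the 8, and how near it lies to the others was not read. Of the 8 measured 2d genes, the fourth and the fifth in order, Cyp2d12 and Cyp2d34, led on control 1 and the other 6 led on MBELN 3. Each of these arrays is a single sample, so the change along the chromosome order has no replicate.

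**Figure D5:**
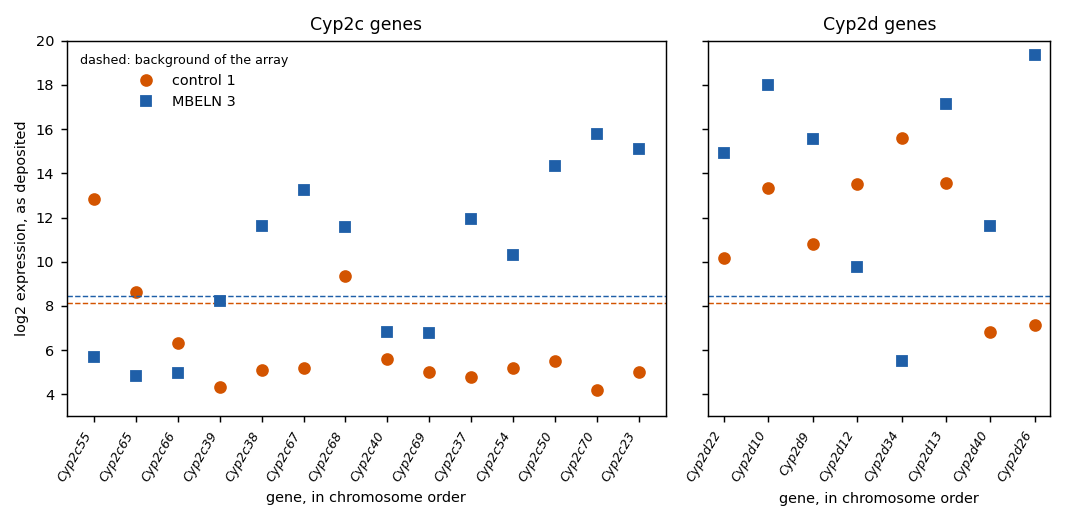
Log2 expression on control 1 (orange circles) and MBELN 3 (blue squares) of the measured Cyp2c genes (left) and Cyp2d genes (right), in chromosome order along the horizontal axis and not to distance, with each array's background as a dashed line of its colour. Cyp2c55 and Cyp2c65 at the left end, and Cyp2d12 and Cyp2d34 in the middle of their cluster, are the genes leading on control 1.

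Family 3 holds the main drug-oxidising enzymes of liver and gut. Cyp3a11, the chief liver form and a target of the receptor PXR, was at 18.41 on MBELN 3, at 4.74, 8.44 and 5.20 on control 1 to 3, and at 4.93 and 5.23 on MBELN 1 and MBELN 2. Only the MBELN 3 value was above background. The fitted log2 difference was 3.40 (SE 3.80, limma adjusted p = 0.936), and -1.04 without MBELN 3. By the same bound, with MBELN 1 and MBELN 2 taken as measured under background, its MBELN mean exceeded the control mean at least 1.39-fold. Cyp3a25, another liver form, was at 14.91 on MBELN 3 against 4.26 to 6.60.

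Cyp3a13, the form best known from intestine, was above background on control 1 and MBELN 3, at 15.32 and 14.72. The other controls stood at 7.70 and 5.02, and the other MBELN arrays at 6.24 and 6.48. Each group thus held 1 array far above its other 2. The fitted log2 difference was -0.20 (SE 3.45, limma adjusted p = 0.995), 2.79 without control 1 and -2.98 without MBELN 3. The remaining 4 members, Cyp3a16, Cyp3a44, Cyp3a57 and Cyp3a59, were above background on no array.

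Family 4 has 16 genes, of which MBELN 3 carried 6 above background, control 1 carried 3, and MBELN 1 and MBELN 2 carried Cyp4b1 alone. Cyp4a10 and Cyp4a14, fatty acid hydroxylases and the classic targets of PPAR alpha, were at 13.17 and 15.36 on MBELN 3. Elsewhere Cyp4a10 lay between 4.54 and 6.54 and Cyp4a14 between 4.35 and 6.97, with no array above background. Cyp4f14, which oxidises leukotriene B4, was above background on control 1 (11.23) and MBELN 3 (12.69), and at 4.76 to 6.29 on the other arrays. Cyp4f13 was at 8.34 and 10.01 on those 2 arrays and at 6.45 to 8.24 elsewhere. Cyp4f15 led on MBELN 3, at 13.88 against 4.82 to 7.67.

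All 7 genes of the sterol and bile acid class were above background on at least 1 array, and 6 of them on MBELN 3. The class median was 11.64 on MBELN 3 and between 5.42 and 5.94 on the other arrays. Cyp7a1, the rate-limiting enzyme of the classic bile acid pathway, was at 15.98 on MBELN 3, at 5.94, 8.49 and 5.59 on control 1 to 3, and at 5.42 and 5.80 on MBELN 1 and MBELN 2. The high value on control 2, 8.49, lay under that array's threshold. The fitted log2 difference was 2.39 (SE 2.97, limma adjusted p = 0.936). It was -1.06 without MBELN 3, the only array on which Cyp7a1 was above background. The bound between the means, with MBELN 1 and MBELN 2 taken as measured under background, was at least 1.01-fold. Cyp8b1, which sets the share of cholic acid, was at 8.72 on MBELN 3 against 3.97 to 5.61, and Cyp7b1, the oxysterol hydroxylase of the alternative pathway, at 9.08 against 5.02 to 5.51.

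Cyp27a1, the mitochondrial sterol hydroxylase that starts the alternative pathway, was more widely measured. It was at 9.83, 5.75 and 4.74 on control 1 to 3 and at 9.25, 7.90 and 14.97 on MBELN 1 to 3, above background on control 1, MBELN 1 and MBELN 3. The groups overlapped. The fitted log2 difference was 3.93 (SE 2.23, limma adjusted p = 0.936), and 1.80 without MBELN 3 or 0.88 without both control 2 and control 3.

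Cyp51, the lanosterol demethylase of cholesterol synthesis, was above background on 4 arrays, the most of any member together with Cyp39a1. It stood at 11.70, 7.08 and 9.61 on control 1 to 3 and at 6.93, 11.24 and 13.05 on MBELN 1 to 3. The low values were on the flat control 2 and on MBELN 1, which carries heart genes. Its fitted log2 difference was 0.95 (SE 1.90, limma adjusted p = 0.941), and -0.24 without control 2. Cyp46a1, the cholesterol 24-hydroxylase of neurons, led on control 3, the array with neuron and glia genes, at 11.50 against 3.79 to 5.43 on the other arrays. Its fitted difference was -2.35 (SE 1.98, limma adjusted p = 0.936), and it was -0.06 without control 3.

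Of the 5 steroid hormone genes measured, only Cyp17a1, the 17-hydroxylase, was above background, at 15.29 on MBELN 3 against 3.89 to 6.62 elsewhere. Cyp11a1, which makes pregnenolone from cholesterol, lay between 4.15 and 5.29 and the 21-hydroxylase gene Cyp21a1 between 4.65 and 6.08, with no array above background. All 5 steroidogenic cell markers were at background on every array. The vitamin D and retinoic acid class was above background on no array. Its 5 genes include Cyp24a1, which inactivates vitamin D (4.79 to 5.45), Cyp27b1, which activates it (3.58 to 6.19), and the retinoic acid hydroxylases Cyp26a1 (4.08 to 5.53) and Cyp26b1 (4.34 to 7.86, highest on MBELN 2). Cyp20a1, a P450 with no settled substrate, was above background on control 1 (8.18), MBELN 1 (8.89) and MBELN 3 (8.58), and at 6.26 on control 3, 4.86 on MBELN 2 and 4.35 on control 2.

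The list of partners holds genes that pass electrons to P450 enzymes or supply haem, and Star and Tspo, which serve cholesterol import. Of 9 measured partners 7 were above background on control 1, MBELN 1 and MBELN 3, 5 on control 3 and MBELN 2, and 0 on control 2. By mean 8 of 9 were higher on MBELN arrays (all but Star, which was above background on no array), against 49.6% of all probe sets, and 0 passed the adjusted test. Without the flat control 2 the count was 9 of 9. The 8 housekeeping genes were all higher too, and 1 of 8 without control 2. Cyb5r3, a cytochrome b5 reductase, was at 14.66, 7.35 and 12.36 on control 1 to 3 and at 16.23, 13.80 and 19.18 on MBELN 1 to 3. Alas1, the first enzyme of haem synthesis, was at 11.16, 6.02 and 10.03, and at 13.30, 10.01 and 18.85. For both, MBELN 3 was highest and control 2 lowest.

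Of 17 measured regulators 12 were above background on MBELN 3 and 9 on control 1, against 5 or fewer on each other array, and 0 passed the adjusted test. Those shared by control 1 and MBELN 3 included Hnf4a, a master regulator of gut and liver epithelium, at 13.97 and 13.83 against 4.08 to 6.71 elsewhere. The xenobiotic receptor PXR (Nr1i2) was at 9.90 and 11.18 on those arrays, the bile acid receptor FXR (Nr1h4) at 10.74 and 11.20, and Nr5a2 at 8.94 and 11.57, with no other array above background for any of the 3. The receptors CAR (Nr1i3, 12.28) and PPAR alpha (Ppara, 12.04) were above background on MBELN 3 alone, and the vitamin D receptor (Vdr, 12.62) on control 1 alone. Ahr, the gene of AhR, was above background on MBELN 3 alone, at 8.65. Its fitted log2 difference was 2.17 (SE 0.75, limma adjusted p = 0.936). At an unadjusted limma p under 0.05 there were 2 of 17 regulators, Ahr and Cebpa, and 1 of 9 partners, Fdx1, against 1.90% of all probe sets.

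The promoters of the P450 genes were searched for short motifs bound by regulators of gut and liver. RefSeq promoter windows of build GRCm38.p6 were held for 69 of the 90 genes (77 windows), and the 250 bases before each start were read on both strands. The HNF4 motif CAAAGTCCA was in 9 of 77 P450 windows (11.7%), against 0.384% of all 32851 windows. The 9 genes are Cyp2c40, Cyp2c65, Cyp2c67, Cyp2c68, Cyp2c69, Cyp2c70, Cyp3a11, Cyp3a16 and Cyp8b1, several of them recent copies of each other. Of these 5 led on MBELN 3 and 1, Cyp2c65, on control 1, while Cyp2c40, Cyp2c69 and Cyp3a16 were above background on no array.

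The TATA motif TATAAA was in 24 windows (31.2%, against 12.4%), among them 17 of the 27 windows of genes leading on MBELN 3. The shorter CAAAG, which also counts every CAAAGTCCA, was in 83.1% against 48.6%. The nuclear receptor motif AGGTCA was in 22.1% against 14.0%, TGAACT in 14.3% against 11.8%, TGTTTAC (FoxA) in 9.09% against 3.17%, ATCAATA (HNF6) in 3.90% against 1.86% and CCAAT in 42.9% against 33.8%. The AhR core GCGTG was in 19.5% against 28.2%, Cyp1a1 and Cyp1b1 among them. TTGCGCAA, TGACGTCA and TCACCCCAC were in 0 of the 77, against 0.164%, 1.55% and 0.496%. The palindromic C/EBP site was also searched and was in 0 of the 77. A match is a run of letters in this window and no more.

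The 150 bases before the start are shown for 8 genes, 5′ to 3′ on the gene's strand and credited to RefSeq (GRCm38.p6), with CAAAGTCCA and TATAAA, or its reverse complement, in capitals. The first 3 led on MBELN 3 and hold the HNF4 motif, the next 2 are the neighbouring genes that led on control 1, of which only Cyp2c65 holds it, and the last 3 are the skin-type, neuronal and housekeeping sterol members. Their positions are, in order, chr5:145879855-145880004 (minus strand), chr9:121916306-121916455 (minus), chr19:40187287-40187436 (minus), chr19:39060856-39061005 (plus), chr19:39006869-39007018 (plus), chr7:26756992-26757141 (plus), chr12:108334166-108334315 (plus) and chr5:4104698-4104847 (minus).
Cyp3a11: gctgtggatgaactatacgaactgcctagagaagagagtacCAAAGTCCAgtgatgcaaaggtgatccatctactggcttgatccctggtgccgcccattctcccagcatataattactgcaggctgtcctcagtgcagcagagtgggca
Cyp8b1: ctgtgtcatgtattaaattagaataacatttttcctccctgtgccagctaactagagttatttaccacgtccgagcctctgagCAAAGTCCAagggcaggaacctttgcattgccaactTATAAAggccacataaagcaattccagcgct
Cyp2c70: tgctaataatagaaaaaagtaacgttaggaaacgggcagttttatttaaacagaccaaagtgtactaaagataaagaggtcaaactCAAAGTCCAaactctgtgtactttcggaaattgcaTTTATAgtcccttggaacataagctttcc
Cyp2c65: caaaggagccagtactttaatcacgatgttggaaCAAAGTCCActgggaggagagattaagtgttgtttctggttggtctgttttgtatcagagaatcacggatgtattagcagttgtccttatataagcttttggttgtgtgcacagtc
Cyp2c55: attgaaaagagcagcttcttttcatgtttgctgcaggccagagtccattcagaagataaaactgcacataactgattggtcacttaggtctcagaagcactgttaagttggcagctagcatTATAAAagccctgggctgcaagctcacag
Cyp2b19: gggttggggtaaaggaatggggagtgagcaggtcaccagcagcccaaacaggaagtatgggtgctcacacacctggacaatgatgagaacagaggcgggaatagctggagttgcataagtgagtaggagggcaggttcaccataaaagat
Cyp46a1: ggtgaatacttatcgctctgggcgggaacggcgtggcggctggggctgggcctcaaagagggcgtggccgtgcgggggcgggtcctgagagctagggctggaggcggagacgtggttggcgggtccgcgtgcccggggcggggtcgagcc
Cyp51: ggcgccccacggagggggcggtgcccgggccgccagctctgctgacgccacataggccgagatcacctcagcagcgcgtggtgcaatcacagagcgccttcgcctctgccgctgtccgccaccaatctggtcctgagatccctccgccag

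The motif ends at position -101 in Cyp3a11, -59 in Cyp8b1, -56 in Cyp2c70 and -108 in Cyp2c65, counted back from the base before the start as -1. Cyp8b1 and Cyp2c55 hold TATAAA from -31 and -29, and Cyp2c70 holds its reverse complement from -29. The windows of Cyp2b19, Cyp46a1 and Cyp51, genes that led on MBELN 2 and control 3 or were measured on 4 arrays, hold neither motif in these bases.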

How the data were processed

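Values are log2 expression from Affymetrix arrays, which the authors made with Transcriptome Analysis Console 4.0, per the submitters' processing notes. The log2 scale was read from the deposited values (3.53 to 19.93 outside control rows), while no source used here gives the summarisation or any normalisation. The highest value was 19.93 on each of control 1, control 3, MBELN 1 and MBELN 3, which is the log2 of 1000000. Whether values near it are capped was not tested. The label protocol names biotin-labelled cRNA from 90 ng of total RNA and also an Ion AmpliSeq mouse transcriptome assay, and the platform is an Affymetrix array. All 6 columns were used as deposited. The 6640 control rows were left out of tests, which left 22206 probe sets, of which 19572 have 1 symbol, 0 several and 2634 none.

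The members and lists were chosen with earlier results of these data known. All 90 members matched RefSeq by Entrez number. The 2-sided comparison of the groups used lmFit and eBayes of limma 3.58.1 in R 4.3.3. P-values were adjusted by Benjamini-Hochberg across the 22206 probe sets and called at 0.05, and the fit was tested on simulated data. Python 3.11.15 was used for counts and plots. Where every array of 1 group lay under its background, a fold between the means is given as a bound. For it, each value of that group was first raised to its array's background. The other group's mean was taken as measured, with its own dim values, so the bound can rest on 1 array. Dim values are not measured levels, so the bound holds only with them taken as they stand. Named genes are, per class, up to 4 with the largest excess of their highest over their second highest array among genes above background there, all those above background on control 1, those with an unadjusted p under 0.05, a fixed list of 30 landmark genes (29 measured) and a list of sex-biased liver genes. A few others are named as examples. Por is not analysed here, and some of the motifs searched are not reported here. Alternatives were quantile normalisation, equal medians, filters at the 25th percentile and the median, array quality weights, a robust prior with an intensity trend, a block for replicate number, each array left out in turn, control 2 and control 3 left out together, averaged probe sets per gene, the 90th and 99th percentile as background, margins of 1 and 3 log2 units, and leading genes judged with control 2 set aside.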

Additional observations from a re-analysis of the deposited data

How the results depend on the processing

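No P450 gene, partner or regulator passed under any alternative tried. Over all probe sets 0 passed under each, except 14 without both control 2 and control 3, which leaves 1 control array that is assumed to vary like the MBELN arrays. With the replicate number as a block 0 P450 genes and 0 probe sets passed. The deviations of same-numbered arrays correlated at 0.11, 0.12 and -0.05, and those of differently numbered arrays at -0.18 to 0.10. The arrays differ in tissue genes, so these values cannot decide whether the numbers are pairs. They are not taken as pairs in the main fit. Leaving out each array in turn moved the count of P450 genes higher on MBELN arrays between 25 (without MBELN 3) and 70. Of the 90 P450 genes, 9 (without control 1, against 21.6% of all probe sets) to 15 (without control 2, against 18.3%) did not overlap. Without both control 2 and control 3, 32 did not, against 44.6%, and with the filter at the median 2 of 47 did not, against 7.26%. The median difference under single omissions ranged from -0.38 to 1.33 over all members, from -0.58 to 1.58 in family 1 and from -0.70 to 1.15 in family 4. The filter at the median, which drops dim members, gave 2.16 over all members, 2.04 in family 1 (also with the filter at the 25th percentile), 1.96 in family 2, 2.97 in family 3, 1.54 in family 4 and 2.67 in the sterol and bile acid class. With all arrays weighted by quality, Cyp1a1 stood at 0.22 and Cyp51 at -0.54. Without both control 2 and control 3, Cyp1a1 stood at 0.33, Cyp46a1 at 0.42 and Cyp51 at -1.29. Single omissions moved Cyp1a1 between -0.63 and 0.36, Cyp2e1 between -0.28 and 7.63, Cyp3a11 between -1.04 and 5.69, Cyp3a13 between -2.98 and 2.79, Cyp7a1 between -1.06 and 4.22, and Cyp51 between -0.37 and 2.68. With the 99th percentile as background, 28 of 90 P450 genes were above it on MBELN 3 (against 5.76% of all probe sets) and 6 on control 1 (6.23%). MBELN 2 then had 1 (1.66%), while control 3 (2.21%) and MBELN 1 (7.73%) had 0. Leading genes then numbered 25 on MBELN 3 (2.28%) and 3 on control 1 (1.54%), MBELN 2 had 1 (0.491%), while control 3 (1.04%) and MBELN 1 (1.67%) had 0. With a margin of 3 log2 units 0 led on MBELN 1 (1.32%). The sterol and bile acid median of control 2 was 5.26 after quantile normalisation and 5.50 with equal medians. The cause of these shifts was not tested. Averaging probe sets moved no P450 value, since each member has 1. Without control 2 and without control 3 apart, limma's smallest adjusted p over all probe sets was 0.319 and 0.854.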

Other observations

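Sex-biased P450 genes of mouse liver were read on MBELN 3, the only array with liver genes, as values from a list chosen from textbook knowledge. Of the male-biased genes Cyp2d9 was at 15.56 and Cyp7b1 at 9.08, both above background, and Cyp2u1 was at 8.39, just under it. Of the female-biased genes Cyp2b9 was at 13.86 and Cyp2a4 at 16.11, both above background, while Cyp2b13 (8.05), Cyp3a44 (6.90) and Cyp3a16 (5.19) were not. The Y-linked gene Eif2s3y was above background on MBELN 3, at 10.84, and on every other array but control 2 (9.21 on control 3 to 12.19 on MBELN 2). The Y-linked gene Uty was above background on control 1 alone, at 10.10, and Kdm5d on no array. Xist and Ddx3y, the other sex-linked genes listed, were not measured. Cyp2a4 and Cyp2d9 have near-identical relatives, and whether their probe sets read those too was not tested.

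P450 symbols outside the member pattern gave 2 values above background. Cyp4a12a, a male-biased fatty acid hydroxylase of liver and kidney, was at 10.26 on MBELN 3 and at 4.01 to 7.80 elsewhere. Cyp3a41a, a female-biased liver form, was at 11.11 on the flat control 2, where no member was above background, and at 7.25 on MBELN 3. Of 2 superfamily genes with other names, Ptgis, the prostacyclin synthase of vessel walls, was above background on MBELN 1 alone, at 11.94, beside 5 of 5 endothelial markers there, and Tbxas1, the thromboxane synthase, on no array.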
